A study of Arabidopsis thaliana with 2 samples.

Results

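The 26S proteasome of Arabidopsis thaliana was examined through the transcripts of 50 of its subunit genes in developing seeds. The genes were chosen by their identifiers, as the rows of both deposited expression tables that encode α and β subunits of the 20S core and RPT and RPN subunits of the 19S regulatory particle. They make up 50 of the 33602 gene models listed, and all 50 were found, with 12 α, 11 β, 10 RPT and 17 RPN genes filling 31 positions of the particle. One library came from seeds carrying OLEOp:GmPSKγ1, a soybean gene for a precursor of the peptide hormone phytosulfokine whose promoter is labelled OLEOp. The second library, the control, was made from seeds carrying OLEOp:GmPSKγ1tc, which has the same promoter label. Both were sampled as developing seed at an age labelled 10 DAP, and RNA of 3 individual lines was pooled for each genotype. Each genotype is therefore 1 library, no difference below has a replicate check, and no test between the genotypes was possible. The sources used here do not give the plant strain or what "tc" changes in the construct, and the soybean transcript itself was not analysed here.

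The 26S proteasome degrades proteins that carry ubiquitin chains. Its 20S core is a barrel of stacked rings, with α rings at the outside that gate the entrance and β rings inside that hold the proteolytic sites. The 19S particle caps the barrel. Its base contains the RPT subunits, ATPases that unfold a substrate and thread it into the core, and its lid contains the subunit that removes ubiquitin. In Arabidopsis many positions are filled by either of a pair of similar genes, and proteasome genes are known to be induced together through the proteasome-related cis-element in their promoters, which has the core TGGGC and is recognised by the transcription factors NAC53 and NAC78.

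That element was therefore looked for first. The genes were chosen by identifier and not by this sequence. The element is named for proteasome genes, however, so matches in them are a description and no independent support. In windows of 300 bases, from 250 bases before the annotated gene start to 50 bases after it, the letters TGGGC or their reverse complement GCCCA were present in 30 of the 50 subunit genes (60%). The same search found them in 7132 of 27443 protein-coding genes (26%). The share was 81.8% for β genes (9 of 11), 58.8% for RPN genes (10 of 17), and 50% for both α genes (6 of 12) and RPT genes (5 of 10). Among complexes compared below, it was 50% for COP9 signalosome genes (5 of 10) and 47.4% for eIF3 genes (9 of 19). It was 75% for genes of assembly and activators (6 of 8), and 40% or less for each other list of the pathway. Within the 250 bases before the start alone, 24 of the 50 subunit genes (48%) and 22.7% of all protein-coding genes held a match. In that shorter window the share was 20% for the signalosome genes and 36.8% for the eIF3 genes. A second motif, AAACCCTA, the telo box found before many plant genes of protein synthesis, was present in 3 of the 50 windows of 300 bases (6%), beside 6.22% of all genes. A match of 5 letters describes the sequence and is not a binding site.

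The 120 bases before the annotated start are shown for 6 subunit genes and for RPN2b and RPN5b. The 6 hold at least 3 matches before the start and have no other annotated gene in the 250 bases before the start. RPN2b and RPN5b hold matches but were not higher in GmPSKγ1. The same is true of RPN6, with 1 match 39 bases before the start. It has another annotated gene in its 250 bases and is not shown. Sequences are from the RefSeq TAIR10.1 genome and gene starts, read 5′ to 3′ on the strand of the gene, with TGGGC and GCCCA in capitals.
PBA1: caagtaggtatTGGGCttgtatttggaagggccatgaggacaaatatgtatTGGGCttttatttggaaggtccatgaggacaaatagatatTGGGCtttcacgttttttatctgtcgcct
PBB1: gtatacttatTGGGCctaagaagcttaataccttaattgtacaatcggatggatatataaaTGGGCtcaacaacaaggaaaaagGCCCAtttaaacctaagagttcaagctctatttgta
PBB2: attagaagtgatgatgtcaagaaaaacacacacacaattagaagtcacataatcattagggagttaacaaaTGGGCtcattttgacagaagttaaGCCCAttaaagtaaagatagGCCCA
RPN1a: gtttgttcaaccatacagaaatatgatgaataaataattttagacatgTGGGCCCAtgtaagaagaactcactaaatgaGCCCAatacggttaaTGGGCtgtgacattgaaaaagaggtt
RPN1b: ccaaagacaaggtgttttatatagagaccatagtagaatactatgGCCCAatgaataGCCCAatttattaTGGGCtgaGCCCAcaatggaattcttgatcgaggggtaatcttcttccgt
RPN8a: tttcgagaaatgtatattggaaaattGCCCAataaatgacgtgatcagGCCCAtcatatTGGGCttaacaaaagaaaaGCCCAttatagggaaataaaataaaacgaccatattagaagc
RPN2b: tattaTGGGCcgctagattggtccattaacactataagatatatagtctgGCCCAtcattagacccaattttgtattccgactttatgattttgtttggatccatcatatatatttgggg
RPN5b: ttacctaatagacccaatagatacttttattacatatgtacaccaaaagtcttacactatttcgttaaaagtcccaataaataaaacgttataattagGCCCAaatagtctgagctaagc
The stretches lie at chr4:15188624-15188743 for PBA1 (plus strand), chr3:10152338-10152457 for PBB1 (plus strand), chr5:16250926-16251045 for PBB2 (minus strand), chr2:8858842-8858961 for RPN1a (plus strand) and chr4:14072583-14072702 for RPN1b (minus strand). The rest lie at chr5:1735605-1735724 for RPN8a (plus strand), chr1:1349960-1350079 for RPN2b (plus strand) and chr5:25896587-25896706 for RPN5b (minus strand). In PBA1 the 3 matches all read TGGGC on the strand of the gene, whereas PBB1, PBB2, RPN1a, RPN1b and RPN8a hold both orientations. RPN1a carries a TGGGC and a GCCCA that overlap as TGGGCCCA. RPN1b has 5 matches in all, the farthest of them 169 bases before the start and outside the stretch shown, and the farther of the 2 matches of RPN5b lies 242 bases before the start, also outside it.

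Subunit transcripts were higher in the GmPSKγ1 library than in the control for 46 of the 50 genes, by a small amount. Levels were deposited by the authors as FPKM, given below with GmPSKγ1 before the control, reads per kilobase of gene model scaled to library size, and the difference was taken as the log2 ratio of GmPSKγ1 over control after adding 1 to both values. Its median was 0.19 over the 50 genes, a ratio of 1.14, and it ranged from −0.16 for RPN6 to 0.39 for PAD2. Over the 17816 genes whose mean reached 1 FPKM, 57.9% were higher in GmPSKγ1 and the median was 0.05. Among the 8482 genes within the subunits' own range of mean level, 11.4 to 140.4 FPKM, 60.9% were higher and the median was also 0.05. The middle 50% of the subunit genes lay between 0.12 and 0.27, and that of the genes of like level between −0.08 and 0.20. Whether more of the seed consisted of cells rich in proteasome transcripts or such cells held more of them cannot be told apart in whole seeds.

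No subunit gene differed by as much as 1.5-fold in either direction, where 3.13% of all genes were at least 1.5-fold higher and 2.68% at least 1.5-fold lower. At 1.2-fold, 13 of the 50 subunit genes were higher, beside 19.2% of all genes, and 0 were lower, beside 11.1% of all genes. Of the 8482 genes of like level, 1417 were at least 1.2-fold higher and 693 lower, and 171 and 154 at 1.5-fold. The count of 13 depended on how the libraries were scaled. It was 8 after dividing GmPSKγ1 by the median ratio of all genes and 6 after scaling without the 50 most abundant genes. The median of the subunits came to 0.13 and 0.10. No share of all genes past 1.2-fold is given after these rescalings, so the counts of 8 and 6 have no background beside them. The count of genes higher stayed at 45 of 50 under both, with PAF2 moving to the other side of 0 at −0.03 in the second.

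**Figure D1:**
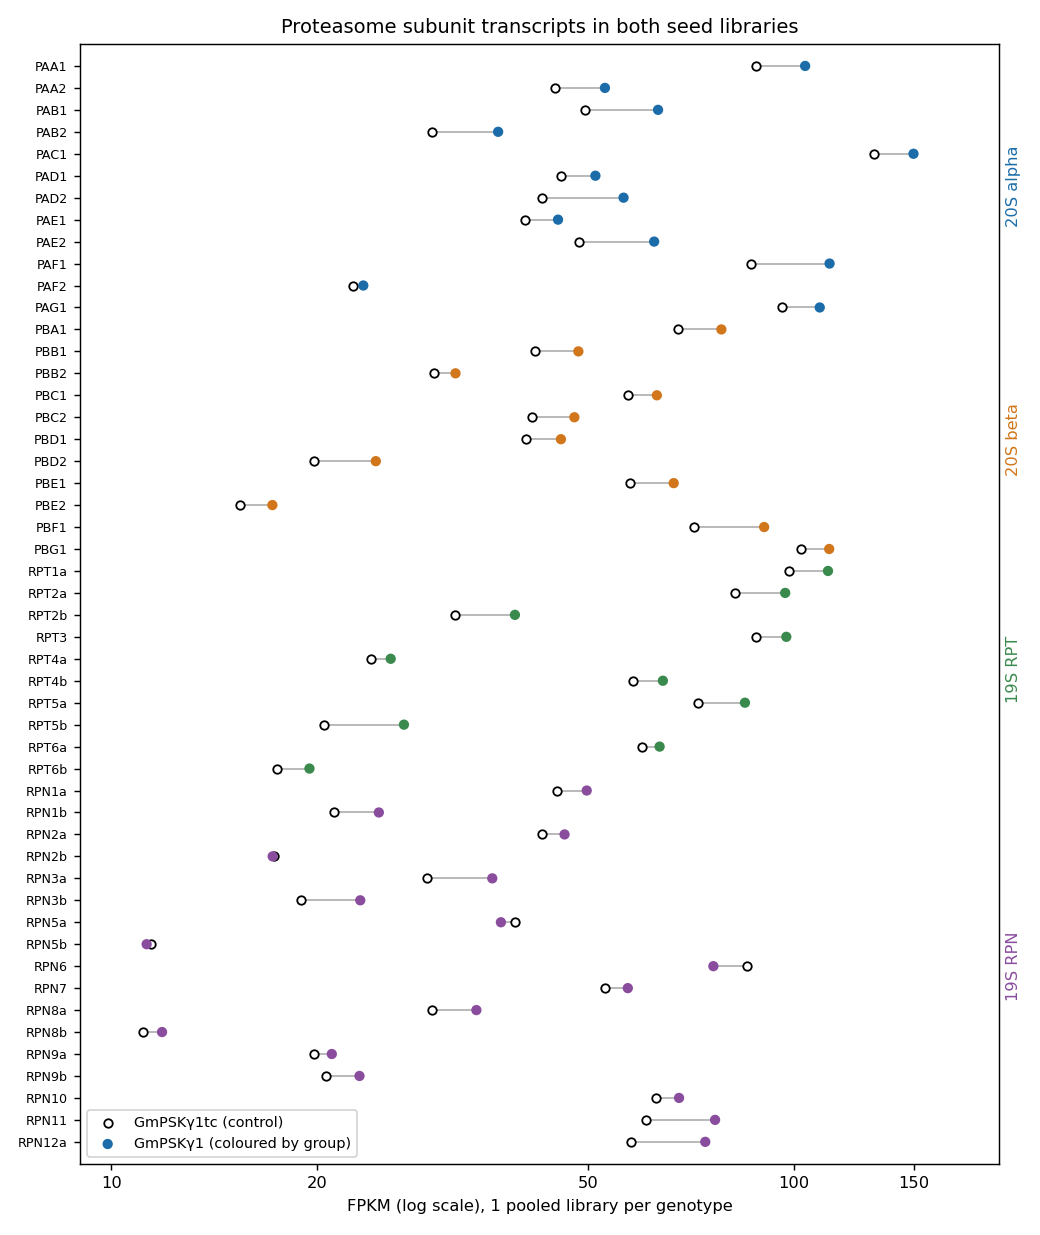
Level of each of the 50 subunit genes in FPKM on a log scale, with open circles for the GmPSKγ1tc control and filled circles, coloured by group, for GmPSKγ1, 1 pooled library each. The filled circle lies to the right for 46 genes and to the left for RPN6, RPN5a, RPN5b and RPN2b.

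The libraries had been scaled to 16.4 M reads for GmPSKγ1 and 15.3 M for the control, as recovered from the FPKM values, and 17841 and 17727 gene models reached 1 FPKM. Whole reads were recovered for all 50 subunit genes, between 189 and 3704 per gene and library, which summed to 71805 in GmPSKγ1 and 58801 in the control. Scaled to library size, the summed reads had a ratio of 1.14, with an exact 95% counting interval of 1.13 to 1.15. This sum includes the 7 subunit genes whose models overlap another. Among genes of like level with recovered reads, the same ratio was 1.02. The interval does not cover the choice of scaling. The rescalings above divide GmPSKγ1 by 1.037 and 1.0582, and either brings the summed ratio below this interval, though still above 1. The share of the subunit genes in all FPKM was 0.409% for GmPSKγ1 and 0.354% for the control. Intervals here and below cover the counting of reads only, not differences between plants, lines or library preparations, and without molecular identifiers a read may not be an independent molecule.

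Of the 43 subunit genes whose models overlap no other gene model, 31 had a counting interval of the ratio that lay above 1, 1 had an interval below 1, and 11 had an interval that held 1. Among 6555 genes of like level treated in the same way, 30.2% had an interval above 1 and 16.5% below. With GmPSKγ1 divided by the median ratio, the counts were 26 above and 2 below, beside 22.5% and 22.9% of those genes. With scaling that left out the 50 most abundant genes they were 22 above and 2 below, beside 18.9% and 26.8%. The genes below 1 after that last scaling were RPN6 and RPN5a. With the deposited scaling and reads taken from the reference exon length, rounded, the counts were 33 above and 1 below, with no share of other genes to set beside them. The other 7 subunit genes, PAD2, PBB2, PBD1, PBF1, RPT5b, RPN5b and RPN7, overlap a neighbouring model, so part of their reads may belong to the neighbour and no interval is given for them.

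**Figure D2:**
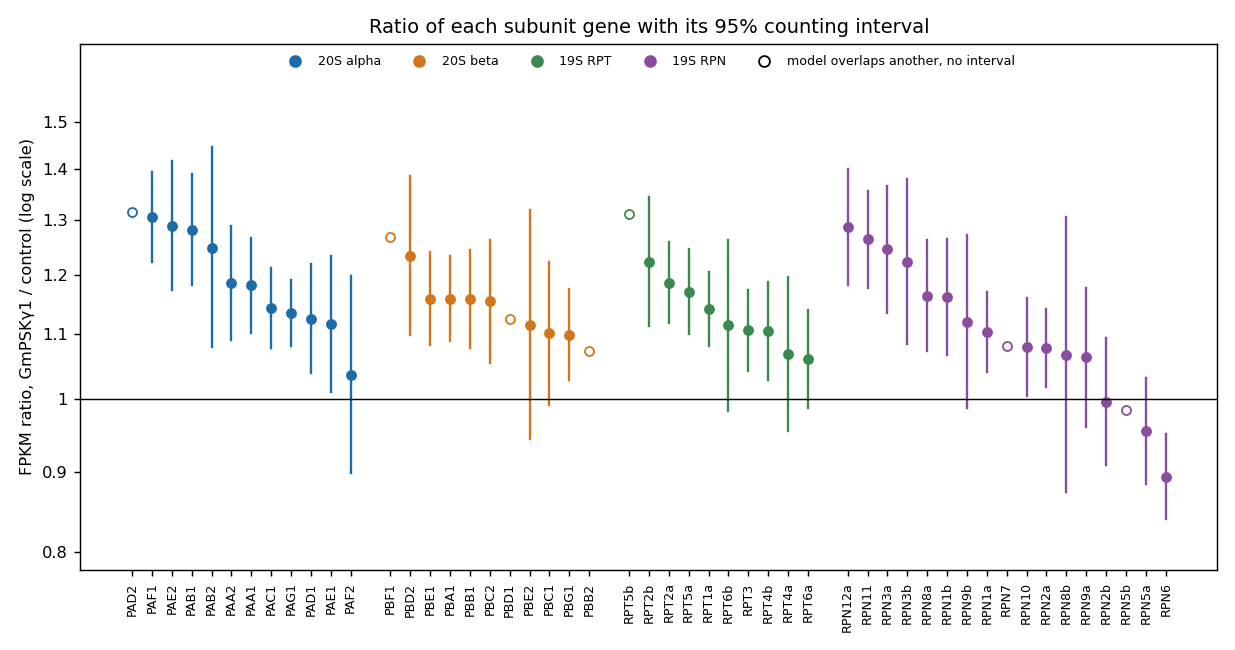
FPKM ratio of GmPSKγ1 over control for each subunit gene on a log scale, ordered by size within each group, with vertical lines for exact 95% counting intervals from recovered reads. Open circles are the 7 models that overlap another and have no interval. RPN6, at 0.894, is the only gene whose whole interval lies below 1.

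All 12 α subunit genes, whose products form the gated outer rings, were higher in GmPSKγ1, with a median log2 ratio of 0.24. After either of these rescalings, 11 of 12 were higher, and the medians were 0.19 and 0.16. The most abundant subunit transcript of all was PAC1 (AT3G22110, chr3:7792638-7794165 in TAIR10), the α3 gene of the 50. PAC1 had 149.8 against 131.0 FPKM, a ratio of 1.14 with an interval of 1.08 to 1.21. It was followed in GmPSKγ1 by PAF1, PBG1, RPT1a and PAG1, between 109.2 and 112.9 FPKM, which are too close for an order to be read without replicates.

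PAD2 (AT5G66140), a gene for α4, showed the highest log2 ratio of the 50 subunit genes, 0.39, at 56.3 against 42.8 FPKM. Its model overlaps another, and PAF1 (AT5G42790, chr5:17159044-17161070), a gene for α6, was the highest without that limit. PAF1 had 112.9 FPKM against 86.5 FPKM, a ratio of 1.31 with an interval of 1.22 to 1.39. Its paralog PAF2 (AT1G47250) was the lowest of the α group, with 23.4 against 22.6 FPKM. The interval of PAF2, 0.898 to 1.198, held 1, and it was the only α gene with an interval for which this was so.

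The other α genes lay between these. PAE2 (AT3G14290), for α5, had 62.4 against 48.5 FPKM, a ratio of 1.29 with an interval of 1.17 to 1.42. PAB1 (AT1G16470), for α2, had 63.3 FPKM against 49.4 FPKM, and its paralog PAB2 (AT1G79210) had 36.9 against 29.5 FPKM. PAB1 and PAB2 had close ratios, 1.28 and 1.25, whereas PAE1 (AT1G53850), the paralog of PAE2, had a ratio of 1.12 at 45.1 and 40.4 FPKM. PAG1 (AT2G27020), the α7 gene of the 50, had the most reads of all subunit genes, 3704 and 3048, and so one of the narrowest intervals, 1.08 to 1.19 around a ratio of 1.14. PAA1 and PAA2, for α1, both had ratios of about 1.18 or 1.19, at 103.9 and 52.9 FPKM in GmPSKγ1.

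All 11 β subunit genes were higher in GmPSKγ1, also after both rescalings, with a median log2 ratio of 0.20 as deposited and 0.15 and 0.12 after them. The 5 genes of the proteolytic positions β1, β2 and β5 had a median of 0.21 and the 6 genes of the other positions 0.18. PBA1 (AT4G31300), the β1 gene of the 50, whose site cuts after acidic residues, had 78.3 against 67.6 FPKM. PBE1 (AT1G13060), for β5, whose site cuts after hydrophobic residues, had 66.7 against 57.6 FPKM. PBB1 (AT3G27430), for β2, whose site cuts after basic residues, had 48.3 against 41.8 FPKM. Each of these had a ratio of 1.16, with intervals from 1.08 or 1.09 to between 1.23 and 1.24.

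The most abundant β transcript was PBG1 (AT1G56450, chr1:21141883-21144400), the β7 gene of the 50, at 112.7 against 102.6 FPKM. Its ratio of 1.099 had an interval of 1.03 to 1.17. The highest β ratio was that of PBF1 (AT3G60820), the β6 gene of the 50, whose model overlaps another, at 90.5 and 71.4 FPKM and a log2 ratio of 0.34. PBD2 (AT4G14800), for β4, followed with 24.4 against 19.8 FPKM, a ratio of 1.23 and an interval of 1.099 to 1.38. The lowest was PBB2 (AT5G40580), the second β2 gene and also an overlapping model, with 31.9 against 29.7 FPKM and a log2 ratio of 0.10. The intervals of PBC1 (0.992 to 1.22) and of PBE2 (0.944 to 1.32), the least abundant β gene at 17.2 and 15.4 FPKM, held 1. For both, more than 1 model length fits the FPKM values. The smallest was taken, which gives the widest interval, so whether these intervals hold 1 is not settled.

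The 10 RPT genes, which encode the ring of ATPases, were likewise all higher in GmPSKγ1, also after both rescalings. Their median log2 ratio was 0.17 as deposited, and 0.12 and 0.09 after rescaling. RPT1a (AT1G53750, chr1:20065714-20068466) was the most abundant, with 112.3 against 98.3 FPKM, a ratio of 1.14 and an interval of 1.08 to 1.205. RPT5b (AT1G09100) had the highest log2 ratio of the group, 0.37, at 26.8 and 20.5 FPKM, but its model overlaps another. RPT2b (AT2G20140) came next with 39.0 against 31.9 FPKM, a ratio of 1.22 and an interval of 1.11 to 1.34, and its more abundant paralog RPT2a (AT4G29040) had 97.2 against 81.9 FPKM and a ratio of 1.19. The lowest was RPT6a (AT5G19990), with 63.6 against 60.0 FPKM, a ratio of 1.06 and an interval of 0.987 to 1.14. For RPT6a more than 1 model length fits the FPKM values, and this interval, from the smallest, is the widest. RPT4a and RPT6b also had intervals that held 1.

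The RPN genes, which encode the rest of the 19S particle, were the group with the lowest median, 0.11, and contained all 4 subunit genes that were not higher in GmPSKγ1. The 13 of 17 that were higher stayed at 13 after both rescalings, while the median came to 0.06 and 0.03. RPN6 (AT1G29150, chr1:10180518-10182703) stood on the other side of 1 from nearly all other subunit genes. The product of RPN6 is a lid subunit that, in yeast, contacts both the base and the core and holds them together. It had 76.2 against 85.3 FPKM, from 1962 and 2051 reads, a ratio of 0.894 with an interval of 0.839 to 0.951. RPN6 was the most abundant RPN transcript in the control and was second to RPN11 in GmPSKγ1.

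RPN5a (AT5G09900) and RPN5b (AT5G64760), the paralogs for another lid subunit, were also lower in GmPSKγ1. RPN5a had 37.2 FPKM against 39.0 FPKM, a ratio of 0.955 with an interval of 0.884 to 1.03. RPN5b, an overlapping model and the least abundant subunit gene in GmPSKγ1, had 11.3 against 11.4 FPKM. RPN2b (AT1G04810), a gene for a large scaffold of the base, was nearly level at 17.2 against 17.3 FPKM, with an interval of 0.908 to 1.09. As deposited, none of these 3 genes differed by more than its counting error where an interval is given. After both rescalings, the whole interval of RPN5a lay below 1.

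At the other end of the RPN group was RPN12a (AT1G64520, chr1:23956386-23958322), a lid subunit gene, with 74.2 against 57.7 FPKM. Its ratio of 1.29 had an interval of 1.18 to 1.399. RPN11 (AT5G23540), which encodes the deubiquitinating enzyme of the lid, had 76.7 against 60.7 FPKM, a ratio of 1.26 with an interval of 1.18 to 1.36. It was the most abundant RPN transcript in GmPSKγ1. RPN3a (AT1G20200) and RPN3b (AT1G75990), the paralogs of a further lid subunit, had ratios of 1.25 and 1.22, at 36.2 against 29.0 FPKM and 23.2 against 18.9 FPKM. RPN10 (AT4G38630), a ubiquitin receptor, had 67.9 against 62.9 FPKM and an interval of 1.005 to 1.16.

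Within the lid, the genes can be grouped by the domain their products carry, and the ratios of the groups overlapped. The 9 genes for subunits with a PCI domain, a helical fold shared by RPN3, RPN5, RPN6, RPN7, RPN9 and RPN12, had a median log2 ratio of 0.11 and a range from −0.16 to 0.36, and 6 of 9 were higher. The 3 genes for subunits with an MPN domain, RPN8a, RPN8b and RPN11, were all higher, with a median of 0.21. RPN8a (AT5G05780) had 34.3 against 29.5 FPKM and RPN8b (AT3G11270) had 11.9 against 11.1 FPKM. The log2 ratio of RPN8b was 0.09, and the interval of its ratio, 0.874 to 1.305, held 1. More than 1 model length fits RPN8b as well, and the interval is that of the smallest. The 14 genes of the base, the RPT genes with RPN1a, RPN1b, RPN2a and RPN2b, had a median of 0.15, and 13 of 14 were higher. These counts stayed as they were after both rescalings. RPN1a (AT2G20580), for the scaffold that docks ubiquitin shuttle proteins, had 49.7 against 45.0 FPKM, and RPN1b (AT4G28470) had 24.7 against 21.2 FPKM.

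Levels were compared between positions by adding the FPKM of those of the 50 genes that can fill each one. In GmPSKγ1 the sums ran from 100.1 FPKM for α2 to 156.8 FPKM for α1 in the α ring, from 70.0 for β4 to 112.7 FPKM for β7, from 83.1 for RPT6 to 136.2 FPKM for RPT2, and from 44.1 for RPN9 to 76.7 FPKM for RPN11. RPT1 is represented here by RPT1a alone, and with RPT1b, a gene outside the 50 whose model overlaps another, its sum was 137.2 FPKM, above that of RPT2, and 121.0 FPKM in the control. Among the 50 genes, the α positions and the RPN positions did not overlap in GmPSKγ1. In the control the α sums of the 50 genes ran from 78.9 to 132.6 FPKM and the RPN sums from 40.4 to 85.3 FPKM. These ranges met only through RPN6. DSS1-V and DSS1-I, genes outside the 50 for a small lid subunit, were not included. They had 80.7 and 29.4 FPKM in GmPSKγ1, and 67.8 and 29.0 FPKM in the control. Added together they lie within the α range in both libraries, although the model of DSS1-I overlaps another. Within a group the highest sum was between 1.57 and 1.74 times the lowest in GmPSKγ1, although a finished particle holds equal numbers of the positions of a ring. The coefficient of variation over positions was 18.7% in GmPSKγ1 and 20.6% in the control for α, 18.3% and 20.7% for β, 18.2% and 14.1% for RPT, and 19.8% and 22.5% for RPN.

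By position, 29 of 31 sums were higher in GmPSKγ1, all but RPN5 (48.5 against 50.4 FPKM) and RPN6. The ratios ran from 1.14 to 1.27 for α, from 1.099 to 1.27 for β, from 1.07 to 1.201 for RPT and from 0.894 to 1.29 for RPN. The RPN positions thus spread more widely than the positions of the core or the ATPase ring, from RPN6 at the lower end to RPN12 at the upper. They are also more numerous, 11 beside 7 for α, 7 for β and 6 for RPT, and a range can widen with their number. The highest β position, β6, is PBF1 alone, and the highest RPT position, RPT5, includes RPT5b. Both are overlapping models.

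**Figure D3:**
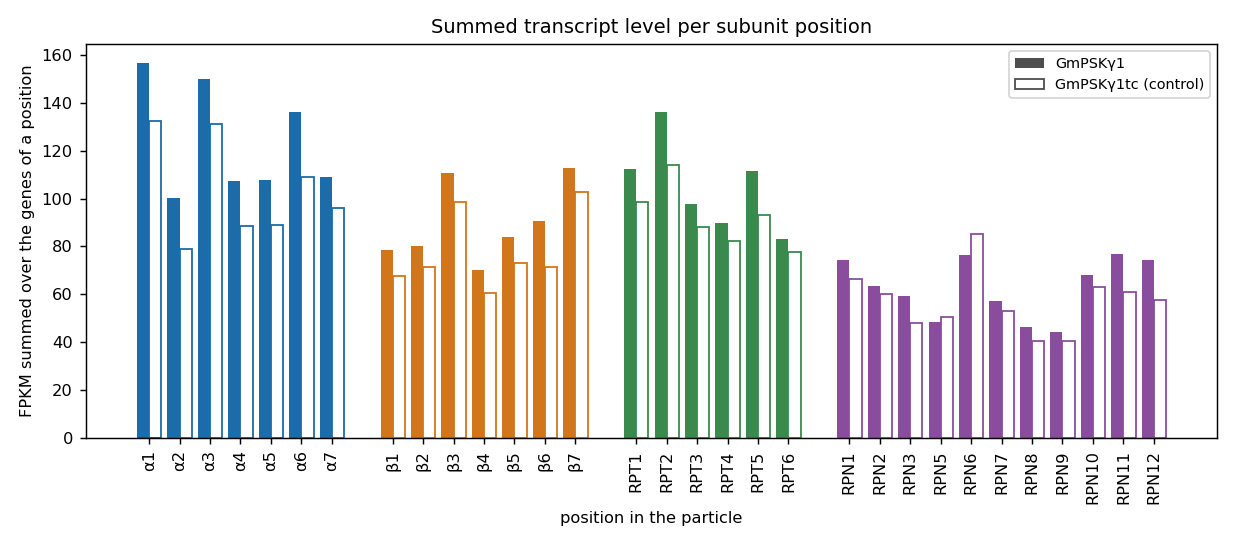
FPKM summed over the genes of each of the 31 positions, filled bars for GmPSKγ1 and open bars for the control, 1 pooled library each and no error bars because there are no replicates. The filled bar is the taller at 29 positions, and at RPN5 and RPN6 the open bar is taller.

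At 19 positions both paralogs of a pair are among the 50 genes, and the division between the paralogs was much alike in the 2 libraries. The share of the pair's FPKM held by the more abundant gene ranged from 48.5% to 82.8% and differed between libraries by at most 3.90 percentage points. The log2 ratios of the 2 paralogs differed by under 0.1 in 11 of the 19 pairs. The coding sequences of a pair are 80.3% to 94.4% identical in the RefSeq TAIR10.1 annotation, and the sources used here do not say how reads that match both were placed. RPT6a and RPT6b are the most alike, at 94.4%, and their split of 76.5% to RPT6a in GmPSKγ1 and 77.4% in the control is the one most open to shared reads.

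The PAF pair was the most uneven. PAF1 held 82.8% of it in GmPSKγ1 and 79.3% in the control, and PAF2 held 17.2% and 20.7%. Its paralogs also differed most in log2 ratio, by 0.33. PBE1 and PBE2 were nearly as uneven, with 79.5% and 78.9% held by PBE1, but their log2 ratios differed by only 0.06. The largest change of share was that of the PAD pair, in which PAD2 held 52.4% in GmPSKγ1 and 48.5% in the control, so the order of its genes changed. PAD2 is an overlapping model. RPN9a and RPN9b were the other nearly even pair, with RPN9b holding 52.3% and 51.0%. In the 5 α pairs the more abundant gene gained in share or kept it within 0.1 points, whereas in the β, RPT and RPN pairs shares moved in both directions.

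Short transcripts had higher ratios than long ones among genes of like level. Among 7896 genes of the subunits' range of level with a recovered length, the median log2 ratio was 0.18 for those under 800 bases. It was 0.11 from 800 to 1199 bases, 0.08 from 1200 to 1599, 0.06 from 1600 to 1999, 0.00 from 2000 to 2999 and −0.06 at 3000 bases or more. The subunit genes were above the median of their own length class in 43 of 50 cases, with a median difference of 0.13. By group this difference was 0.15 for α genes (11 of 12 above), 0.12 for β (10 of 11), 0.11 for RPT (9 of 10) and 0.08 for RPN (13 of 17). The median length of the recovered models was 1137 bases for α, 1719 for β, 1603 for RPT and 1945 for RPN. For 14 subunit genes, 5 of them α, more than 1 length was possible, and the smallest was taken, which also sets their class. Of the 36 genes with 1 possible length, 32 were above their class median, with a median difference of 0.15, and the median lengths were 1384 bases for α, 1772 for β, 1615 for RPT and 1945 for RPN.

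The 14 subunit genes of 1600 to 1999 bases were all above their class median. The 4 longest, RPN1a, RPN1b, RPN2a and RPN2b, were also above theirs, including RPN2b, which was not higher in GmPSKγ1 itself. RPN6, of 1570 bases, was 0.24 below its class median, the farthest of all. Across the 50 subunit genes Pearson's r of the log2 ratio with log2 length was −0.29 and Spearman's rho with length −0.24. Across the 7896 genes they were −0.20 and −0.29. These are correlations over genes of the same libraries, given as a description. The part of this trend in the difference between the libraries was not tested.

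**Figure D4:**
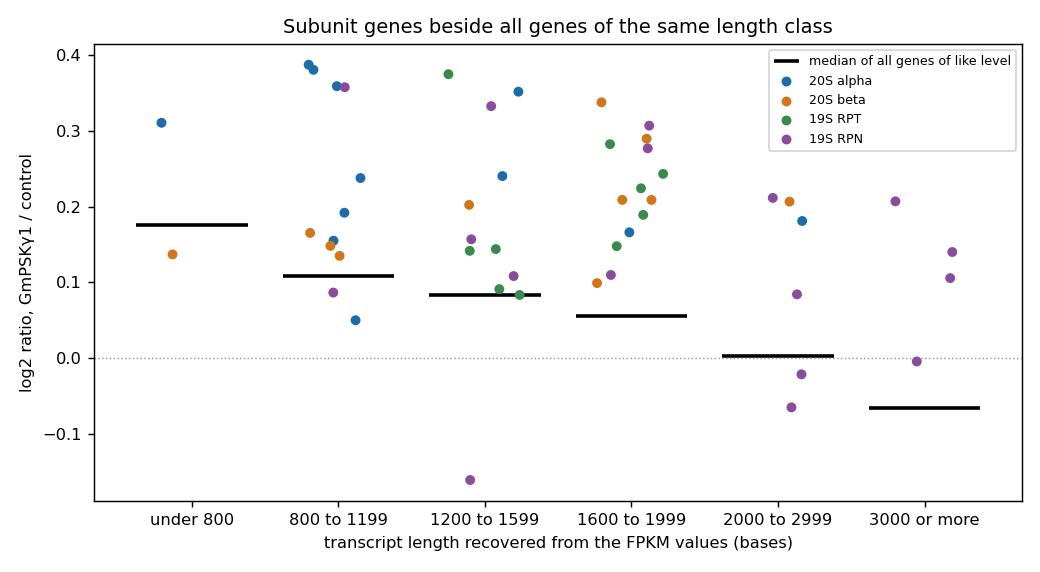
Log2 ratio of GmPSKγ1 over control for the 50 subunit genes, spread by transcript length class in bases, with black bars for the median of all genes of like level in each class. The bars step down from 0.18 to −0.06, and 43 of the 50 points lie above the bar of their class.

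The ratios of subunit genes with and without the promoter motif overlapped over most of their range. The 24 genes with TGGGC or GCCCA in the 250 bases before the start had a median log2 ratio of 0.16, and 21 of them were higher in GmPSKγ1. The 26 without it had a median of 0.22, and 25 were higher. Both PAF1 and RPN12a, among the highest, had no match there, PAD2 had 2, and RPN6, the lowest, had 1 match 39 bases before the start. RPN1b and RPN1a, with 5 and 4 matches, had log2 ratios of 0.21 and 0.14, and RPN8a, with 4, had 0.21.

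The 2 transcription factors known to act through that element had ratios on opposite sides of 1. NAC78 had 38.7 against 49.8 FPKM, a log2 ratio of −0.36, although its model overlaps another. NAC53 had 8.33 against 7.72 FPKM and an interval of the ratio of 0.904 to 1.29.

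Of the genes that build or modify the particle, UMP1b, UMP1a and a gene similar to yeast Nas2 had higher log2 ratios than any subunit gene. UMP1b and UMP1a encode homologs of a yeast chaperone that is enclosed in the maturing core and becomes its first substrate. UMP1b had 72.4 against 44.1 FPKM, a log2 ratio of 0.70, though its model overlaps another. UMP1a had 26.2 against 18.8 FPKM, a ratio of 1.396 with an interval of 1.16 to 1.682. Both are short models, of 789 and 681 bases, in the length class with the highest median ratio among genes of like level. The gene similar to Nas2, in yeast a chaperone of base assembly, had 18.5 against 13.5 FPKM and an interval of 1.15 to 1.64. In contrast PA200, an alternative cap of the core, had 10.7 against 13.0 FPKM with an interval of 0.756 to 0.8997, and ECM29, a proteasome-binding protein in yeast, had 6.02 against 6.99 FPKM with an interval of 0.766 to 0.967. These are the longest models of the list, at 5608 and 5708 bases. Of its 8 genes, 6 were higher and 2 lower, with a median log2 ratio of 0.15, and the count was the same after both rescalings.

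Of 5 further subunit genes outside the 50, 4 passed the minimum level and were higher, with a median log2 ratio of 0.14, and 3 of 4 were higher after rescaling. DSS1-V, for a small lid subunit, was the most abundant at 80.7 against 67.8 FPKM. RPN13, a ubiquitin receptor, had 21.7 against 19.4 FPKM, and RPT1b had 24.99 against 22.6 FPKM. RPN12b, the paralog of RPN12a, was near the limit of detection at 0.261 and 0.837 FPKM, so RPN12a supplied nearly all of the RPN12 transcript.

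All 10 genes for ubiquitin shuttle proteins and proteasome-bound deubiquitinases were higher in GmPSKγ1, with a median log2 ratio of 0.16, and 8 or 7 of 10 after the rescalings. RAD23D, a shuttle protein, was the most abundant at 137.2 against 130.9 FPKM, with an interval of 0.998 to 1.101. UBP7, a deubiquitinase, had the highest log2 ratio, 0.29, at 7.78 against 6.20 FPKM.

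The genes for ubiquitin itself, its activating enzymes and CDC48, an ATPase that extracts ubiquitinated proteins, were divided. Of 10, 6 were higher and 4 lower, with a median of 0.03 that changed sign to −0.02 and −0.05 on rescaling. All 3 CDC48 genes were lower in GmPSKγ1. CDC48A had 148.6 against 170.7 FPKM with an interval of 0.842 to 0.8999, CDC48B had 8.71 against 26.2 FPKM with an interval of 0.295 to 0.374, and CDC48C had 11.1 against 15.2 FPKM. The polyubiquitin gene UBQ14 had 10.4 against 32.9 FPKM, but polyubiquitin genes consist of nearly identical repeats, and how reads were divided among them is not known.

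The COP9 signalosome and the translation factor eIF3 are built from PCI and MPN subunits as the proteasome lid is, and serve to place it among related complexes. All 10 signalosome genes were higher in GmPSKγ1, with a median log2 ratio of 0.16, and 8 of 10 after both rescalings. CSN8 was the most abundant at 40.3 against 35.1 FPKM, and CSN4 and CSN2 had the highest log2 ratios, 0.32 and 0.22. Of 18 eIF3 genes above the minimum level, 16 were higher, with a median of 0.17, and 14 and 13 after the rescalings. The most abundant, eIF3k, had 103.3 against 82.4 FPKM, eIF3l1 had a log2 ratio of 0.40, and eIF3d1 had 9.51 against 0.902 FPKM with no interval because its reads could not be recovered. The medians of both complexes lie near the 0.19 of the proteasome subunits and above that of the 9 lid genes with a PCI domain. The subunit genes were thus not set apart from these complexes by their median as deposited. Relative to length class the medians were 0.13 for the 50 subunit genes, 0.08 for the signalosome genes and 0.10 for the 15 eIF3 genes with a recovered length. Whether these differ was not tested.

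**Figure D5:**
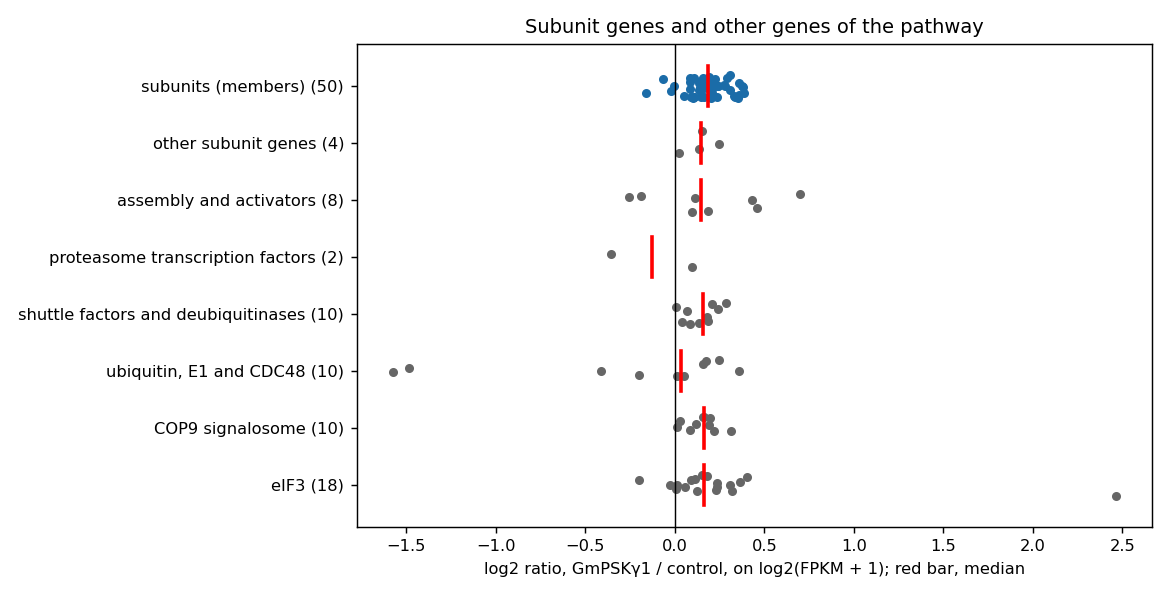
Log2 ratio of GmPSKγ1 over control on log2(FPKM + 1) for the 50 subunit genes and for the other lists, with the number of genes above the minimum level in brackets and a red bar for the median of each list. Most points of every list lie between −0.5 and 0.5, and UMP1b, UBQ14, CDC48B and eIF3d1 lie outside that range.

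Markers were read to see what the seeds contained. All 5 embryo markers were measured, with the storage protein gene SESA3 at 27054 against 34812 FPKM, and their summed level was 46078 and 52244 FPKM. Of 5 seed coat markers, 4 were measured, summing to 852.9 and 907.7 FPKM, with TT12 near 0. Of 5 endosperm markers, ZOU, ALE1 and AGL62 were measured, summing to 26.8 and 26.3 FPKM, FWA was near 0 and IKU2 was listed at 0 in both libraries. All 3 leaf markers, which green seeds also express, summed to 2889 and 2510 FPKM. Of the root markers PYK10 was under 1 FPKM and PRX72 was listed at 0. In GmPSKγ1, 3 of the 5 embryo markers, 2 of the 4 measured seed coat markers, 1 of the 3 measured endosperm markers and 2 of the 3 leaf markers were higher. The sums of the embryo and seed coat markers were lower in GmPSKγ1 through their most abundant genes. Without SESA3 the embryo sum was 19024 against 17432 FPKM, with CRA1, a storage globulin, at 8831 against 6493 FPKM. Without TT10, at 597.3 against 682.4 FPKM, the seed coat sum was 255.5 against 225.3 FPKM. The endosperm and leaf sums were higher in GmPSKγ1, likewise through their most abundant genes. Without ALE1 the endosperm sum was 10.7 against 12.5 FPKM, and without RBCS1A the leaf sum was 468.6 against 479.9 FPKM. The part of these differences in the result was not tested.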

How the data were processed

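Messenger RNA of developing seeds was sequenced in 2 libraries, 1 per genotype. The authors deposited FPKM per gene model. Bowtie 0.12.2 and the build TAIR10 were used, per the submitters' processing notes. The program behind FPKM, the annotation release, strand handling and the placing of shared reads are not stated in these sources, so reads of a gene and of a gene antisense to it cannot be told apart.

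The subunit genes and all other lists, alternatives and markers were chosen with earlier results of these data known. Names follow the Arabidopsis literature, and 35 of the 50 equal the RefSeq symbol. Every subunit gene could be named. Full values were given for the most abundant gene and the highest and lowest log2 ratios of each group, for the paralog pairs that are most uneven or differ most, and for the most abundant gene and the 2 with the largest absolute log2 ratio of other lists. Other genes were named after their values were seen. The values of 1 gene that this rule selects are not reported here.

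A log2 ratio is on log2(FPKM + 1), which understates differences of low genes, and genes whose mean FPKM reached 1 were counted. FPKM times length falls on whole reads at the right library size. This size was found from single-exon genes, where 94.9% of 414 values in GmPSKγ1 and 94.4% of 376 in the control were whole within 0.005. The smallest length that makes both libraries whole within 0.0006 gave the reads of 90.3% of 17816 genes. For 14 subunit genes more than 1 length was possible, and the smallest was taken, which gives the fewest reads and the widest interval. This step was chosen after seeing the data. Exact Clopper-Pearson 95% intervals of ratios were taken for models that overlap no other (4329 of all models do overlap). Scripts were tested on simulated data. Promoters were read from TAIR10.1. All 27998 nuclear models matched by locus tag overlap their TAIR10.1 position, and 50.2% share a start or an end with it, so gene starts can differ between the annotations. Protein sequences were not used here. Calculations used Python 3.11.15, NumPy 2.4.6, pandas 2.3.3, SciPy 1.17.1 and Biopython 1.88, and figures matplotlib 3.10.9.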

Additional observations from a re-analysis of the deposited data

How the results depend on the processing

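No paired analysis was possible because each genotype has 1 library, and for the same reason no replicate could be left out. After dividing GmPSKγ1 by the median ratio of all genes, the median log2 ratio was 0.13 over the subunit genes, 0.19 for α, 0.15 for β, 0.12 for RPT and 0.058 for RPN. Of the subunit genes 8 were at least 1.2-fold higher, and 50% of all genes were higher by any amount. After scaling without the 50 most abundant genes, the medians were 0.10, 0.16, 0.12, 0.089 and 0.030. Of the subunit genes 6 were at least 1.2-fold higher, and 45.7% of all genes were higher by any amount. Under both, 2 intervals lay below 1 in place of 1. The median of the subunit genes stayed 0.13 above that of all genes under both, beside 0.14 as deposited. Pseudocounts of 0.1 and 5 FPKM left 46 genes higher, with 13 and 10 at least 1.2-fold higher. The share of all genes higher was 55.9% when no minimum was set, 59.2% at a minimum of 5 FPKM, 59.0% after rescaling to a sum of 1000000 and 57.1% without overlapping models. Leaving those models out also gave an RPN median of 0.14, with 40 of 43 subunit genes higher. Relative to length class, a comparison added after seeing the data, the median was 0.13, and 0.15 over the 36 subunit genes with 1 possible length. The motif share of all genes was 22.7% in the 250 bases before the start. The median of each subunit group stayed above 0 under each of these settings, while single genes near 0 crossed it. The subunit genes higher numbered 45 under the first scalings and 47 after rescaling to that sum, and the signalosome genes higher went from 10 to 8. The median of the ubiquitin list changed sign. RPN8b, with 189 control reads at the smallest of its possible lengths, has an interval of 0.874 to 1.305. At that count a difference under about 1.2-fold is not detectable there. A greater length would give more reads and a narrower interval.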
